A study of Mus musculus with 12 samples.

Results

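The response of the liver to a methionine- and choline-deficient (MCD) diet was compared between wild-type (WT) mice and Pctp-/- mice. For each gene, the MCD minus chow change in WT mice was subtracted from the MCD minus chow change in Pctp-/- mice, and the result is called the difference of responses. It was tested for the 12466 genes, of 35275 listed, whose FPKM averaged at least 0.5 over 12 mice. FPKM gives the fragments of a gene relative to its length and to the mapped fragments of the library. Each of the 4 groups (WT on chow, Pctp-/- on chow, WT on MCD and Pctp-/- on MCD) held whole liver from 3 male mice, and the Pctp-/- mice lacked the gene in every tissue. The age and strain of these mice, the time on the diet and the hour of tissue collection were not given in the sources used here. Whole liver mixes several cell types, so fewer cells of a type and less RNA per cell cannot be told apart.

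Pctp encodes phosphatidylcholine transfer protein (PC-TP), which carries phosphatidylcholine between membranes. The MCD diet withholds 2 nutrients from which the liver makes phosphatidylcholine, and is known to cause fat accumulation and injury in mouse liver. Methionine is also the source of cysteine, taurine and methyl groups.

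Pctp itself was lower in every Pctp-/- mouse than in every WT mouse on the same diet. In chow-fed mice its FPKM was 2.25, 1.21 and 2.65 in WT and 0.566, 0.364 and 0.330 in Pctp-/- mice. With the MCD diet it was 7.90, 5.10 and 3.61 in WT and 0.156, 0.329 and 0.293 in Pctp-/- mice. The knockout difference on log2(FPKM + 1) was -1.07 on chow (limma adjusted p = 0.150) and -2.33 on MCD (limma adjusted p = 0.000624). Uniquely mapped reads per mouse ranged from 30486576 to 55179468. Of 11 mapping and quality percentages, 10 did not overlap between the diets and 0 parted the genotypes within a diet. The diet and the sequencing of these libraries cannot be told apart, whereas each knockout effect was measured within a diet.

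Between the diets, 57.0% of tested genes were called in WT (limma, adjusted p under 0.05) and 50.3% in Pctp-/- mice. The sequencing of the libraries differed with the diet, so these calls cannot be credited to the diet alone. The knockout effect within a diet was called for 0.136% of genes on chow, where Pctp itself was not called, and for 0.818% on MCD. For the difference of responses, 12 genes were called, 0.0963% of those tested. Of these, 5 (0.0401%) had a higher response in Pctp-/- mice and 7 (0.0562%) a lower one. Zbtb16, Cyp3a41a, Meg3, Rian and Mug1 had the higher response. Csad, Bcl6, Fam25c, Cyp2c55, Ddc, Htatip2 and Gm49342 had the lower one. Scaling changed this split: quantile normalization gave 13 higher to 5 lower, and median-of-ratios scaling 5 to 1. At an unadjusted p under 0.05, the response was higher in Pctp-/- mice for 3.95% of genes and lower for 11.2%, and the median over all genes was -0.0964. A difference below 0 was found for 64.6% of all tested genes. This lean to lower values also moved with the scaling. The shares were 7.12% higher to 7.36% lower with quantile normalization (median -0.0117) and 6.16% to 7.50% with median-of-ratios scaling (median -0.0193).

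**Figure D1:**
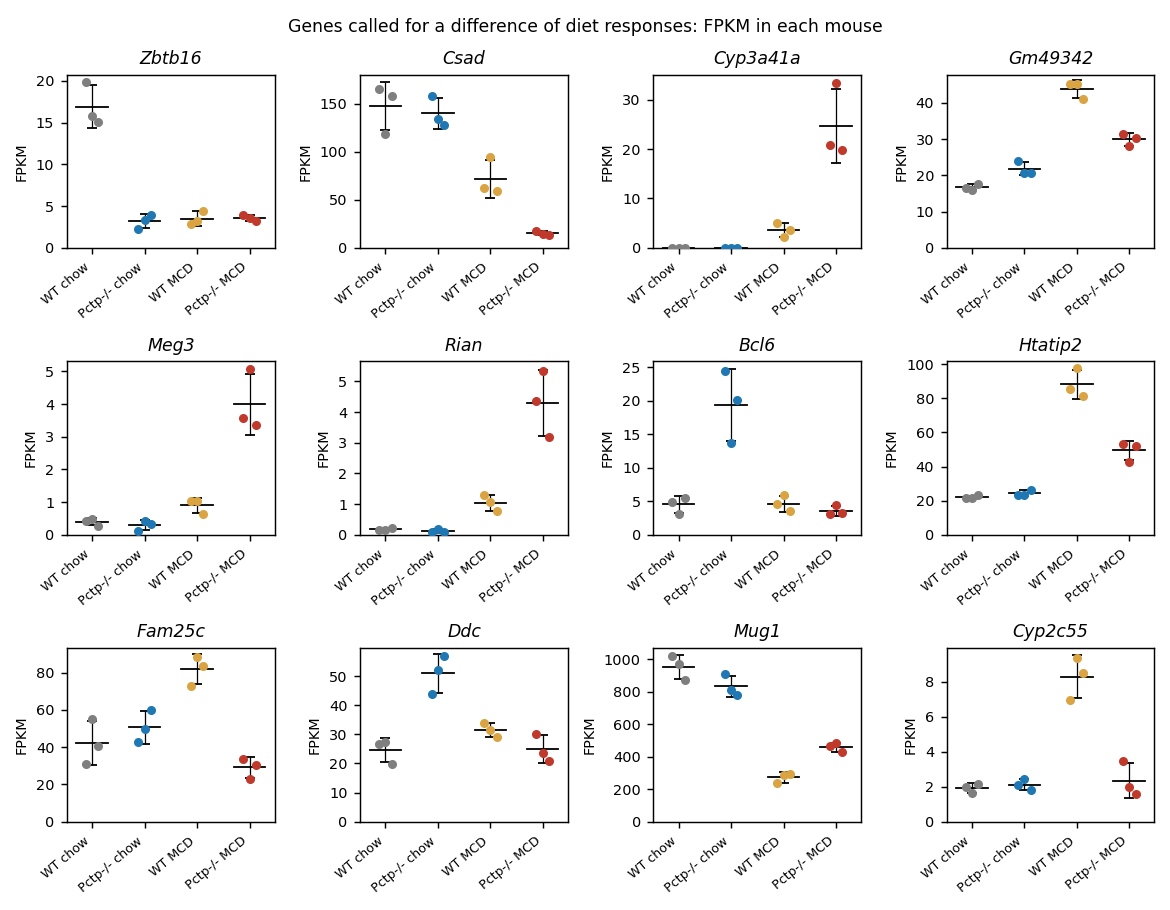
FPKM (vertical axes, each from 0) of the 12 genes called for the difference of responses, in each mouse of the 4 groups on the horizontal axis, with the group mean and SD as bars. In Zbtb16, Bcl6 and Ddc the group that stands apart is on chow, and in Csad, Cyp3a41a, Meg3, Rian and Mug1 the Pctp-/- mice part from WT on MCD.

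The called genes fell into separate patterns according to the diet on which the genotypes differed. The knockout effect had an unadjusted p under 0.05 on chow alone for 3 of them, Zbtb16, Bcl6 and Ddc. It passed on MCD alone for 8, and in opposite directions on both diets for 1, Gm49342. Among the 675 genes with an unadjusted p under 0.01 for the difference of responses, 145 had a knockout effect on chow alone, 388 on MCD alone, 140 on both in opposite directions and 2 on both in the same direction. Over all tested genes, 5.48% had the effect on chow alone and 14.8% on MCD alone. A further 1.12% had it on both in opposite directions and 0.377% on both in the same direction. These classes describe the same contrast that selected the genes and were not tested. Of the 178 genes with a higher response, 37.6% had the effect on chow alone, and of the 497 with a lower response, 15.7% did.

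Zbtb16 encodes PLZF, a zinc finger repressor whose transcription is induced by glucocorticoids. On chow, its FPKM was 19.9, 15.8 and 15.1 in WT and 2.27, 3.33 and 3.93 in Pctp-/- mice. Under MCD feeding it was 2.81, 3.28 and 4.47 in WT and 3.95, 3.59 and 3.17 in Pctp-/- mice. WT mice on chow were thus the high group, and the other 9 mice shared a low range. The diet change was -1.99 in WT (limma adjusted p = 2.44e-06) and 0.15 in Pctp-/- mice (limma adjusted p = 0.506). The difference of responses was 2.14 (SE 0.25, limma adjusted p = 0.0144). Zbtb16 lies at chr9:48654297-48836222 on the minus strand (GRCm38), and its call held in 11 of 12 fits that left out 1 mouse.

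Bcl6 had the opposite pattern on chow. It encodes a transcriptional repressor that is known to be held down in liver by growth hormone acting through STAT5. Its FPKM on chow was 4.95, 3.15 and 5.54 in WT and 24.4, 13.7 and 20.0 in Pctp-/- mice. In MCD-fed mice it was 4.54, 5.90 and 3.49 in WT and 3.06, 4.43 and 3.21 in Pctp-/- mice. The 3 Pctp-/- mice on chow stood above all others, and the genotypes overlapped on MCD. The diet change was 0.028 in WT and -2.13 in Pctp-/- mice (limma adjusted p = 1.59e-05), and the difference of responses was -2.16 (SE 0.33, limma adjusted p = 0.0399). The call held in 7 of 12 fits that left out 1 mouse. Bcl6 lies at chr16:23965052-23988852 on the minus strand and overlaps a gene on the other strand, whose reads cannot be told apart from its own unless the counting used strand.

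The promoter of Bcl6 is shown because STAT5 is its known regulator. The RefSeq window covers 250 bases before to 50 after the start, at chr16:23988803-23989102 of GRCm38.p6 on the minus strand. Capitals mark a match to the STAT palindrome TTCNNNGAA and to the E-box CACGTG.
Bcl6 promoter: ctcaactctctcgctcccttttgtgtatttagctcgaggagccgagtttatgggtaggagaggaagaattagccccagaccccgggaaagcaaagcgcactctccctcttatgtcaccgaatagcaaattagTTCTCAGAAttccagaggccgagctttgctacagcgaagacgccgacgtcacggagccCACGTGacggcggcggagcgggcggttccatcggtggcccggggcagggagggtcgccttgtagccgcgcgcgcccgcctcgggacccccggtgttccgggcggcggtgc
The STAT letters lie from -118 to -110 and the E-box from -60 to -55 relative to the start. On both strands, 8.298% of 32851 promoter windows of this length hold the STAT palindrome and 7.15% the E-box. A second Bcl6 window, at chr16:23981234-23981533, holds 3 STAT palindromes and no E-box. For 10 of the 12 called genes 15 windows were found. The STAT letters were present in 3 of these, both of Bcl6 and 1 of Rian. A match describes the letters only and is not a bound site.

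Ddc, the third gene of the chow pattern, encodes aromatic L-amino acid decarboxylase, which makes dopamine and serotonin. In chow-fed mice its FPKM was 26.6, 27.3 and 19.7 in WT and 43.7, 52.0 and 57.1 in Pctp-/- mice. On MCD it was 33.8, 31.6 and 28.9 in WT and 30.2, 23.7 and 20.8 in Pctp-/- mice. As for Bcl6, the genotypes did not overlap on chow and overlapped on MCD. The knockout effect was 1.03 on chow and -0.34 on MCD, where the limma unadjusted p of 0.0504 just missed 0.05. This gave a difference of responses of -1.37 (SE 0.22, limma adjusted p = 0.0488), and the call held in 4 of 12 fits that left out 1 mouse. Ddc lies at chr11:11814101-11898144 on the minus strand, on the chromosome of Pctp but 78.2 megabases away, and overlaps a gene on the other strand.

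Most genes of the circadian clock did not overlap between the genotypes on chow. Their levels are known to change with the hour of the day, the hour of collection was not given in the sources used here, and its part in these values was not tested. The molecular clock is a feedback loop in which Arntl (BMAL1) and its partners drive Per, Cry and Nr1d genes through E-boxes, and Dbp, Tef and Hlf act through D-boxes. The list of clock and clock output genes held 21 genes, all tested. By limma 0 were called for the difference of responses and 3 for the knockout effect on chow, and at an unadjusted p under 0.05 there were 11 with a higher response and 4 with a lower one, beside 3.95% and 11.2% of all genes. Their median difference was 0.77, against -0.0964 over all genes. On chow, 15 of the 21 had no overlap between the genotypes, 11 lower and 4 higher in Pctp-/- mice, where 10.6% of all tested genes had no overlap (5.38% lower and 5.17% higher). On MCD, 0 of 21 had no overlap, where 26.6% of all tested genes did so.

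Dbp, a D-box activator with one of the strongest daily rhythms in liver, had the highest difference among uncalled genes with an unadjusted p under 0.001. Its FPKM on chow was 39.5, 98.3 and 86.0 in WT and 5.58, 9.85 and 5.64 in Pctp-/- mice. With the MCD diet it was 8.10, 9.09 and 16.1 in WT and 5.59, 17.1 and 38.5 in Pctp-/- mice. WT mice on chow were above every other mouse, and the Pctp-/- mice on MCD spread widely. The difference of responses was 3.70 (SE 0.76), with a limma adjusted p of 0.0783 that missed the threshold. The knockout effect on chow was -3.18 (limma adjusted p = 0.0492).

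Per3, a member of the Period family, was at 4.07, 9.30 and 10.7 FPKM in WT and 0.969, 1.89 and 1.26 in Pctp-/- mice on chow. Under MCD feeding it was at 2.03, 2.67 and 3.55 FPKM in WT and 3.26, 5.16 and 7.28 in Pctp-/- mice. It was thus lower in every Pctp-/- mouse on chow and overlapped with WT on MCD, with a difference of responses of 2.56 (SE 0.44, limma adjusted p = 0.0675). Tef, a D-box factor related to Dbp, had a difference of 1.92 (SE 0.37, limma adjusted p = 0.0694). Its FPKM was 30.5 to 54.8 in WT and 13.7 to 18.3 in Pctp-/- mice on chow. Bhlhe41, an E-box repressor, ranged from 2.00 to 4.56 FPKM in WT and from 0.259 to 0.671 in Pctp-/- mice on chow. Its difference was 1.95 (SE 0.40, limma adjusted p = 0.0775). Nr1d1 (REV-ERBα), which represses Arntl, ranged from 78.3 to 105 FPKM in WT and from 31.5 to 49.2 in Pctp-/- mice on chow, with a difference of 1.54 (SE 0.32, limma adjusted p = 0.0785).

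Arntl went the other way. On chow, its FPKM was 4.26, 1.42 and 2.06 in WT and 7.70, 6.12 and 6.67 in Pctp-/- mice. In MCD-fed mice it was 5.91, 7.66 and 4.34 in WT and 5.26, 3.22 and 2.45 in Pctp-/- mice. It was thus higher in all Pctp-/- mice than in WT mice on chow, where Dbp, Per3 and Nr1d1 were lower, and the genotypes overlapped on MCD. Its difference of responses was -1.81 (SE 0.40, limma adjusted p = 0.0953).

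Promoters of 3 of these genes are shown because a clock motif was found in them, while the windows of Dbp, Nr1d1 and Arntl hold neither motif. Capitals mark the E-box CACGTG or the D-box TTANGTAA, which 2.323% of all windows hold. The windows are RefSeq GRCm38.p6, chr4:151044616-151044915 on the minus strand for Per3, chr15:81802423-81802722 on the plus strand for Tef and chr6:145865371-145865670 on the minus strand for Bhlhe41.
Per3 promoter: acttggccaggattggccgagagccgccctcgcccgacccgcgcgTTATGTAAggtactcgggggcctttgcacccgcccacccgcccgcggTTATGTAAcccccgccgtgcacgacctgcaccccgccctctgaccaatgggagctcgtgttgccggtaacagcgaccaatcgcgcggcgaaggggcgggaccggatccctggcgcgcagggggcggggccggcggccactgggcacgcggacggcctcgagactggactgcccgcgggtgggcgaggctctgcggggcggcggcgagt
Tef promoter: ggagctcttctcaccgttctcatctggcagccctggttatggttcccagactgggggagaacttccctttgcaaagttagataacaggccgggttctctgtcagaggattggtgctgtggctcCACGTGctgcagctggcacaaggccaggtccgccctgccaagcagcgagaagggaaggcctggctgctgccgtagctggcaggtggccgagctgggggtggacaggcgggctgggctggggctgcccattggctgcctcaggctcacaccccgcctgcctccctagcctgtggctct
Bhlhe41 promoter: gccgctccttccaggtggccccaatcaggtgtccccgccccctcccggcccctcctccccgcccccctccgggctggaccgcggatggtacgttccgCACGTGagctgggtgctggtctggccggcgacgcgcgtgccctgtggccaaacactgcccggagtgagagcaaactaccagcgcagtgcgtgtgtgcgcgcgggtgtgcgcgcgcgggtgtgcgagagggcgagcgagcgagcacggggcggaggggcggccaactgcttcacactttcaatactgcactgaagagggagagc
The Per3 window holds 2 D-boxes, from -205 to -198 and from -158 to -151, and no E-box. The E-box lies from -127 to -122 in Tef and from -153 to -148 in Bhlhe41. Of 23 windows of 18 clock genes, 6 had an E-box and 1 a D-box.

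**Figure D2:**
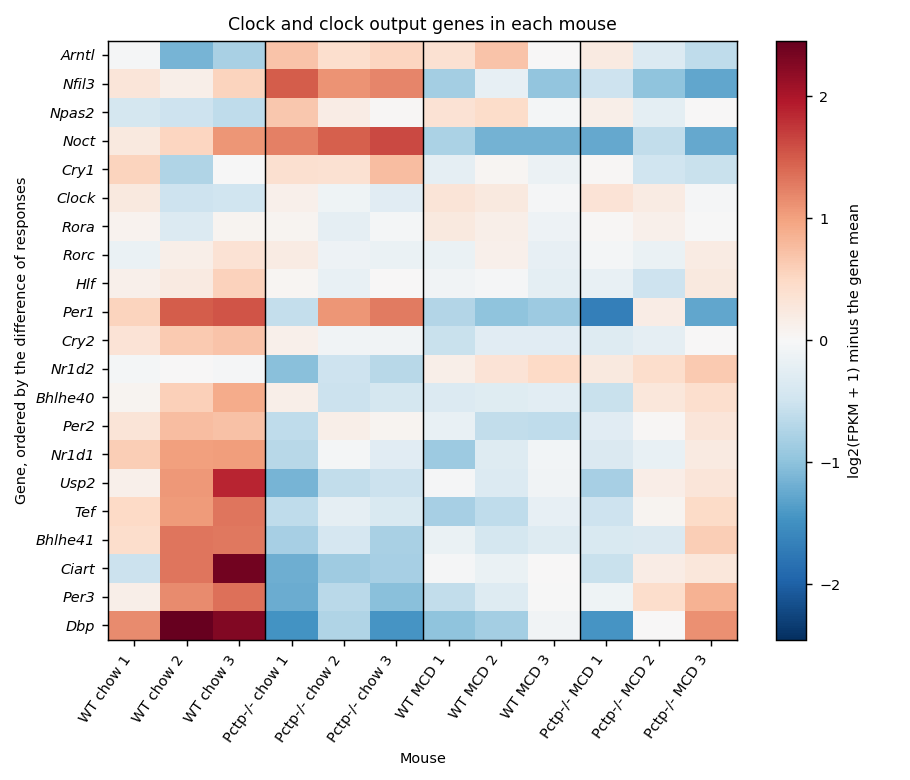
Each cell gives log2(FPKM + 1) minus the gene mean for 21 clock and clock output genes (rows, ordered by the difference of responses) in each of the 12 mice (columns). Dbp, Per3, Bhlhe41 and Tef are high in WT mice on chow and low in Pctp-/- mice on chow, and Arntl shows the reverse.

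Glucocorticoid-responsive genes had differences in both directions. Of 28 listed genes, 27 were tested and 1, Zbtb16, was called. At an unadjusted p under 0.05 there were 4 with a higher response and 4 with a lower one, beside 3.95% and 11.2% of all genes. The median difference was -0.25, against -0.0964 over all genes. Fkbp5, a chaperone induced by glucocorticoids, was at 12.1 to 31.2 FPKM in WT and 3.03 to 11.7 in Pctp-/- mice on chow, with a difference of 2.12 (SE 0.57, limma adjusted p = 0.139). Ddit4, an inhibitor of mTORC1 induced by stress and glucocorticoids, had the lowest difference among the uncalled genes with an unadjusted p under 0.001, -3.58 (SE 0.69, limma adjusted p = 0.0694). It was at 4.57, 2.44 and 3.40 FPKM in WT and 5.52, 12.6 and 13.9 in Pctp-/- mice on chow. On MCD it was at 59.0, 143 and 45.6 FPKM in WT and 17.3, 25.6 and 6.51 in Pctp-/- mice. The genotypes did not overlap on either diet and changed order between them. Cdkn1a (p21, a cell cycle inhibitor) had a difference of -2.35 (SE 0.64, limma adjusted p = 0.142).

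The growth hormone axis list of 13 genes had 12 tested, with 1 called, Bcl6. At an unadjusted p under 0.05 there were 5 with a higher response and 2 with a lower one, beside 3.95% and 11.2% of all genes. The median difference was 0.42. Cish and Socs3, feedback inhibitors of cytokine receptors, were lower in all Pctp-/- mice than in WT mice on chow. Cish was at 9.80, 7.21 and 1.22 FPKM in WT and 0.116, 0.844 and 0.221 in Pctp-/- mice on chow, with a difference of responses of 2.29 (SE 0.68, limma adjusted p = 0.156). Socs3 had a difference of 1.04 (SE 0.31, limma adjusted p = 0.160). On MCD the summed FPKM of the list was 191 to 199 in WT and 266 to 267 in Pctp-/- mice, without overlap, and on chow the genotypes overlapped. Abundant members weigh most in this sum. Of the 12 tested, 4 were above WT without overlap on MCD and 0 below, beside 5.50% and 21.1% of all genes.

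Csad was among the genes that differed on MCD. It encodes cysteine sulfinic acid decarboxylase, an enzyme of taurine synthesis from cysteine. In chow-fed mice its FPKM was 166, 119 and 158 in WT and 158, 134 and 128 in Pctp-/- mice. With the MCD diet it was 62.3, 94.9 and 59.2 in WT and 17.8, 14.8 and 13.3 in Pctp-/- mice. Csad fell on MCD in both genotypes, by 1.04 in WT (limma adjusted p = 0.000464) and by 3.12 in Pctp-/- mice (limma adjusted p = 1.81e-07). This gave a difference of responses of -2.08 (SE 0.26, limma adjusted p = 0.0144), and the call held in 10 of 12 fits that left out 1 mouse. Csad lies at chr15:102176999-102204724 on the minus strand and overlaps Zfp740 on the other strand.

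The rest of the taurine and sulfur amino acid list did not share the value of Csad. Of 26 genes, 25 were tested and 1, Csad, was called. There were 3 with a higher response and 4 with a lower one at an unadjusted p under 0.05, beside 3.95% and 11.2% of all genes. The median difference was -0.16. Mat1a, which makes S-adenosylmethionine in liver, had a difference of 0.63 (SE 0.21, limma adjusted p = 0.192). Gss, glutathione synthetase, had -0.51 (SE 0.17, limma adjusted p = 0.199), and Ethe1, a persulfide dioxygenase, had -0.56 (SE 0.18, limma adjusted p = 0.185).

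Cyp3a41a, a cytochrome P450 expressed more in female than in male mouse liver, was listed at 0 in all 6 mice on chow. On MCD its FPKM was 4.97, 2.13 and 3.56 in WT and 20.7, 33.4 and 19.9 in Pctp-/- mice, without overlap. The difference of responses was 2.51 (SE 0.31, limma adjusted p = 0.0144), and the call held in 10 of 12 fits that left out 1 mouse. With every chow value at 0, leaving out a chow mouse could not move the difference itself. The gene was not called at pseudocounts of 0.1 (limma adjusted p = 0.0622) and 0.01 (limma adjusted p = 0.12). Cyp3a41a lies at chr5:145694049-145720136 on the minus strand. Its reads can be shared with near-identical members of the family, so its level is uncertain. Cyp3a41b was at 0.518 to 1.02 FPKM in WT and 1.44 to 5.91 in Pctp-/- mice on MCD, with a difference of 0.95 (limma adjusted p = 0.323). Cyp3a44 was at 44.5 to 124 FPKM in WT and 55.9 to 143 in Pctp-/- mice on MCD, which overlapped.

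Of the tested female-biased liver genes, 18 had a difference above 0 and 3 below, where 64.6% of all genes were below 0. Of 26 listed, 21 were tested and 1 was called. At an unadjusted p under 0.05 there were 7 with a higher response and 0 with a lower one, beside 3.95% and 11.2% of all genes. The median difference was 0.57, and 12 of the 21 were above WT without overlap on MCD, beside 5.50% of all genes. Sult3a1, a sulfotransferase, was at 0.702, 7.98 and 8.13 FPKM in WT and 35.5, 34.1 and 55.9 in Pctp-/- mice on MCD, with a difference of 2.96 (SE 0.69, limma adjusted p = 0.111).

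Of the male-biased genes, 22 had a difference above 0 and 6 below, where 64.6% of all genes were below 0. Their median diet change had the opposite sign to that of the female-biased list. All 28 listed genes were tested and 0 were called by limma. At an unadjusted p under 0.05, 6 had a higher and 0 a lower response, beside 3.95% and 11.2% of all genes. Their median diet change was -2.16 in WT and -1.75 in Pctp-/- mice, where that of the female-biased list was 2.14 and 3.76. Mup3, a major urinary protein, was at 5118 to 6933 FPKM in WT and 5730.3 to 6596 in Pctp-/- mice on chow. In MCD-fed mice it was at 191, 264 and 286 FPKM in WT and 477, 469 and 507 in Pctp-/- mice. The MCD values did not overlap, and the difference of responses was 0.99 (SE 0.22, limma adjusted p = 0.0940). Mup genes are near-identical copies, so their separate levels are uncertain.

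Meg3 and Rian, maternally expressed noncoding RNAs of the imprinted Dlk1-Dio3 region, were both called. Meg3 was at 0.284 to 0.498 FPKM in WT and 0.116 to 0.414 in Pctp-/- mice on chow. On MCD it was at 1.04, 1.03 and 0.643 FPKM in WT and 3.57, 5.06 and 3.34 in Pctp-/- mice. Rian was at 0.161 to 0.231 FPKM in WT and 0.0922 to 0.198 in Pctp-/- mice on chow. With the MCD diet it was at 1.30, 1.07 and 0.767 FPKM in WT and 4.36, 5.35 and 3.17 in Pctp-/- mice. Both overlapped between genotypes on chow and did not on MCD. This gave a difference of responses of 1.51 for Meg3 (SE 0.22, limma adjusted p = 0.0379) and 1.43 for Rian (SE 0.21, limma adjusted p = 0.0399). The calls held in 7 and 5 of 12 fits that left out 1 mouse, and neither gene was called at a pseudocount of 0.1, where the adjusted p was 0.0766 for each.

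The genes lie at chr12:109541001-109571726 and chr12:109603940-109661716 on the plus strand, 32214 bases apart, and hold small RNA genes on the same strand. Mirg, the next noncoding RNA of the region, was below the filter, at 0.199 to 0.288 FPKM in WT and 0.721 to 1.10 in Pctp-/- mice on MCD. Among 21 genes of the imprinted list, 11 were tested, 2 were called and the median difference was 0.051. Cdkn1c, a maternally expressed cell cycle inhibitor, had a difference of 0.43 (SE 0.22, limma adjusted p = 0.372), and Peg3 had 0.92 (SE 0.39, limma adjusted p = 0.293).

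Several targets of the xenobiotic receptors CAR and PXR were lower in Pctp-/- than in WT mice on MCD. CAR and PXR sense drugs, bile acids and other ligands and induce detoxifying enzymes. Of 33 listed, 32 were tested, 2 were called lower, and at an unadjusted p under 0.05 there were 2 with a higher response and 13 with a lower one, beside 3.95% and 11.2% of all genes. The difference was below 0 for 24 of the 32, beside 64.6% of all genes, and its median was -0.54. On MCD, 14 of the 32 were below WT without overlap and 0 above, beside 21.1% and 5.50% of all genes. Within MCD, the knockout effect itself was called for 11 of the 32, beside 0.818% of all genes. Earlier results of these data were known when this list was chosen, so these counts describe and do not test.

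Htatip2 (TIP30), an oxidoreductase, rose on MCD in both genotypes. Its FPKM on chow was 21.3, 21.7 and 23.1 in WT and 23.4, 23.5 and 26.3 in Pctp-/- mice. Under MCD feeding it was 85.3, 97.7 and 81.3 in WT and 53.3, 42.8 and 52.1 in Pctp-/- mice. The rise was smaller in Pctp-/- mice, with a difference of responses of -0.96 (SE 0.15, limma adjusted p = 0.0426), and the call held in 5 of 12 fits that left out 1 mouse. Cyp2c55, a cytochrome P450, was at 1.61 to 2.16 FPKM in WT and 1.84 to 2.45 in Pctp-/- mice on chow. In MCD-fed mice it was at 6.97, 9.37 and 8.51 FPKM in WT and 3.47, 1.97 and 1.57 in Pctp-/- mice. Cyp2c55 rose by 1.67 in WT (limma adjusted p = 1.48e-05), and the change in Pctp-/- mice was 0.060 (limma adjusted p = 0.809). Its difference was -1.61 (SE 0.26, limma adjusted p = 0.0488), and the call held in 4 of 12 fits that left out 1 mouse. Htatip2 lies at chr7:49759115-49773975 and Cyp2c55 at chr19:39007019-39042693, both on the plus strand, and Cyp2c55 belongs to a family of close paralogs.

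Cyp2b10, the classical CAR target, did not pass the threshold for the difference. On chow, its FPKM was 33.6, 22.5 and 76.9 in WT and 54.1, 33.6 and 40.2 in Pctp-/- mice. On MCD it was 87.2, 244 and 224 in WT and 24.0, 17.0 and 19.5 in Pctp-/- mice. The MCD values did not overlap, and the difference of responses was -3.12 (SE 0.60, limma adjusted p = 0.0694). Gstm2, a glutathione transferase, was at 255, 217 and 182 FPKM in WT and 117, 103 and 113 in Pctp-/- mice on MCD, with a difference of -0.96 (SE 0.18, limma adjusted p = 0.0694).

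**Figure D3:**
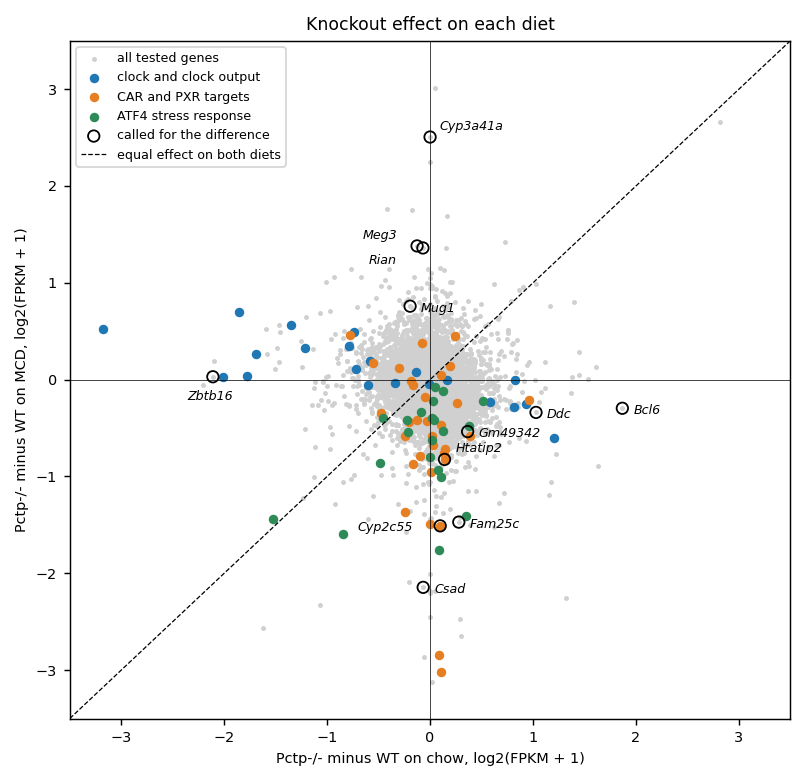
Each point is a tested gene, with the Pctp-/- minus WT difference on chow (horizontal) and on MCD (vertical), both on log2(FPKM + 1), and the dashed line marks an equal effect on both diets. Zbtb16 and many clock genes lie to the left. On the vertical axis Zbtb16 is at 0.030, while Dbp, Per3, Tef, Nr1d1 and Bhlhe41 are above 0, from 0.26 (Bhlhe41) to 0.70 (Per3). Csad as well as Cyp2c55 and further CAR and PXR targets lie near 0 on the horizontal axis and low on the vertical one.

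Fam25c, a gene of little-known function, was at 31.1, 54.9 and 40.9 FPKM in WT and 42.6, 49.5 and 60.0 in Pctp-/- mice on chow. With the MCD diet it was at 72.9, 88.6 and 83.7 FPKM in WT and 33.8, 22.9 and 30.6 in Pctp-/- mice. It rose in WT by 0.97 (limma adjusted p = 0.00134) and fell by 0.78 in Pctp-/- mice (limma adjusted p = 0.00590), so that the diet moved it in opposite directions. The difference of responses was -1.75 (SE 0.28, limma adjusted p = 0.0488), and the call held in 6 of 12 fits that left out 1 mouse. Fam25c lies at chr14:34351881-34355433 on the minus strand.

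Gm49342, a predicted gene that spans the purine nucleoside phosphorylase genes Pnp and Pnp2, changed order between the diets. In chow-fed mice its FPKM was 16.6, 15.9 and 17.5 in WT and 23.9, 20.8 and 20.8 in Pctp-/- mice. Under MCD feeding it was 45.2, 45.2 and 41.0 in WT and 31.3, 28.0 and 30.4 in Pctp-/- mice. Pctp-/- mice were above WT on chow and below on MCD without overlap, with a difference of -0.90 (SE 0.13, limma adjusted p = 0.0333) whose call held in 7 of 12 fits that left out 1 mouse. The gene lies at chr14:50944517-50963136 on the plus strand, and its reads cannot be separated from those of the genes it overlaps.

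Mug1, a protease inhibitor of the macroglobulin family secreted by liver, fell less on MCD in Pctp-/- mice. On chow, its FPKM was 1019, 968 and 872 in WT and 907, 813 and 778 in Pctp-/- mice. In MCD-fed mice it was 235, 286 and 296 in WT and 468, 481 and 428 in Pctp-/- mice. The groups overlapped on chow and not on MCD. Mug1 had a difference of responses of 0.95 (SE 0.15, limma adjusted p = 0.0488), and the call held in 4 of 12 fits that left out 1 mouse. It lies at chr6:121838541-121889057 on the plus strand, beside its paralog Mug2. In the list of macroglobulins, serpins and acute-phase proteins, 32 of 33 genes were tested and 1 was called. At an unadjusted p under 0.05 there were 10 with a higher response and 0 with a lower one, beside 3.95% and 11.2% of all genes. The median difference was 0.26, against -0.0964 over all genes. Serpina3n, a serpin, had a difference of 0.47 (SE 0.14, limma adjusted p = 0.164), and Il1r1, the interleukin-1 receptor, had 1.02 (SE 0.27, limma adjusted p = 0.132).

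Genes of the ATF4 stress response, which cells turn on when amino acids are short, had a median diet change of 1.04 in WT and 0.56 in Pctp-/- mice. Of 25 listed, 21 were tested, 0 were called by limma, and at an unadjusted p under 0.05 there were 0 with a higher response and 11 with a lower one, beside 3.95% and 11.2% of all genes. On MCD, 15 of the 21 were below WT without overlap and 0 above, beside 21.1% and 5.50% of all genes. Nupr1, a stress-induced nuclear protein, was at 29.5, 22.2 and 10.3 FPKM in WT and 6.47, 4.95 and 3.60 in Pctp-/- mice on MCD, with a difference of -1.85 (SE 0.41, limma adjusted p = 0.0995). Slc3a2, the heavy chain of amino acid transporters, was at 40.2, 41.4 and 28.9 FPKM in WT and 20.6, 18.5 and 16.6 in Pctp-/- mice on MCD, with a difference of -1.02 (SE 0.19, limma adjusted p = 0.0694). These genes were lower in every Pctp-/- mouse on MCD, and neither passed the threshold. Mthfd2, a mitochondrial folate enzyme, had a difference of -1.11 (SE 0.30, limma adjusted p = 0.141), and Atf5 had -0.85 (SE 0.22, limma adjusted p = 0.132).

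The PPAR targets, genes driven by nuclear receptors that sense fatty acids, had a median difference of 0.043. Of 49 listed, 47 were tested and 0 were called by limma. At an unadjusted p under 0.05 there were 5 with a higher response and 4 with a lower one, beside 3.95% and 11.2% of all genes. The genotypes did not overlap for 5 of the 47 on chow and 11 on MCD, beside 10.6% and 26.6% of all genes. Fgf21, a secreted hormone induced by PPARα and by ATF4, was at 253, 485 and 215 FPKM in WT and 124, 134 and 83.3 in Pctp-/- mice on MCD. Its values on MCD did not overlap, and the difference was -1.76 (SE 0.55, limma adjusted p = 0.171). Cyp4a32, an ω-hydroxylase of fatty acids, had 1.92 (SE 0.49, limma adjusted p = 0.132). The receptors Ppara, Ppard and Pparg had differences of 0.70 (SE 0.26), -0.42 (SE 0.22) and -0.49 (SE 0.26). Acot13, a thioesterase that binds PC-TP, had 0.16 (SE 0.24), and Fabp5 had 0.46 (SE 0.43).

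**Figure D4:**
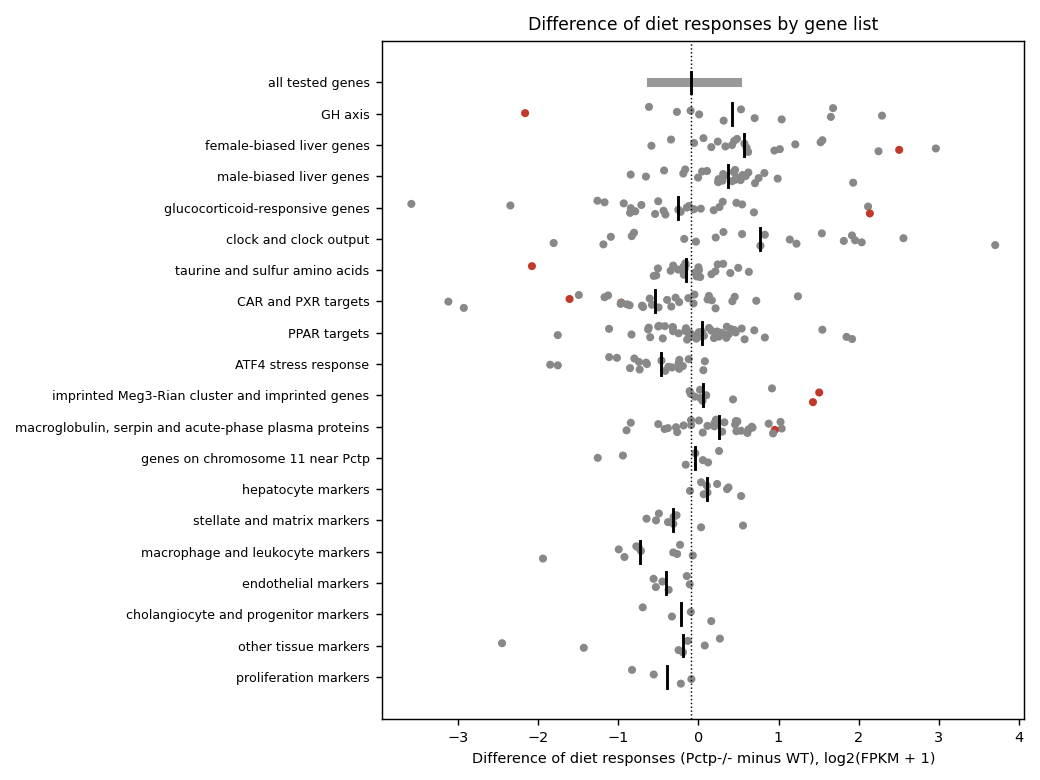
Each point is a gene of one of 19 lists, placed by its difference of responses on log2(FPKM + 1), with called genes in red, list medians as vertical bars, and the 5th to 95th percentile of all tested genes as a grey bar. Clock, female-biased and growth hormone lists have medians above the dotted line, the median of all genes (-0.0964), and CAR and PXR targets, ATF4 genes and macrophage markers have medians below it.

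Among the remaining genes with the widest differences, several were induced by MCD in WT and less so in Pctp-/- mice. Ly6d was at 305, 110 and 71.8 FPKM in WT and 22.2, 26.6 and 14.7 in Pctp-/- mice on MCD, with a difference of -2.95 (SE 0.57, limma adjusted p = 0.0694). Tubb2a, a tubulin, had -2.23 (SE 0.42, limma adjusted p = 0.0694), Nat8f5 had -1.88 (SE 0.37, limma adjusted p = 0.0694) and Tnfrsf12a, the TWEAK receptor, had -1.71 (SE 0.37, limma adjusted p = 0.0925). Arid5b, a chromatin regulator, had 1.45 (SE 0.29, limma adjusted p = 0.0725) with WT mice on chow above all other groups, and Gm16559 had 1.95 (SE 0.36, limma adjusted p = 0.0694).

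Marker genes of other cell types were measured beside these results. All 10 tested macrophage and leukocyte markers had a difference below 0 (median -0.73), as did 64.6% of all genes, 0 were called by limma and 1 had an unadjusted p under 0.05. The summed FPKM of the 12 listed was 142 to 226 in WT and 114 to 121 in Pctp-/- mice on MCD, and 49.2 to 80.3 and 43.8 to 121 on chow. The 6 endothelial markers had a median of -0.41, with 2 lower at an unadjusted p under 0.05, beside 11.2% of all genes. For the 9 stellate and matrix markers the median was -0.31, with 0 lower. The 9 tested hepatocyte markers had a median of 0.11, with 1 higher, beside 3.95% of all genes. Summed FPKM of the hepatocyte markers was 64483 to 71755 in WT and 78893 to 86050 in Pctp-/- mice on MCD, without overlap, and overlapped on chow. Alb made up most of this sum, at 41402 to 46335 FPKM in WT and 54602 to 61588 in Pctp-/- mice on MCD. Of the 9 tested hepatocyte markers, 2 were above WT without overlap on MCD and 0 below, beside 5.50% and 21.1% of all genes. The medians were -0.21 for 4 cholangiocyte and progenitor markers, -0.39 for 4 proliferation markers and -0.19 for 7 markers of other tissues, and 0 of these were called by limma, with 0, 2 and 2 at an unadjusted p under 0.05. On MCD, 4 of the 6 endothelial, 5 of the 10 macrophage and leukocyte and 3 of the 4 proliferation markers were below WT without overlap. The same held for 1 of the 9 stellate and matrix markers and 0 of the cholangiocyte, progenitor and other tissue markers, beside 21.1% of all genes. In these lists 0 markers were above WT without overlap on MCD, beside 5.50% of all genes. Of the pancreatic markers, Prss1 and Cpa1 were at 0 in all 12 mice and Cela1 was at 13.0 to 55.7 FPKM. The skeletal muscle genes Acta1 and Myh4 were present in WT mice 1 and 2 on MCD, with Acta1 at 12.4 and 12.1 FPKM and at 0 in WT mouse 3 and 0.0742 or less in every other mouse. Without both of these mice none of the 12 genes was called, with the remaining WT mouse on MCD assumed to vary like the other groups. The 1 gene called then was Cyp2c29, a cytochrome P450 named after its values were seen, with a difference of -2.27 (SE 0.22, limma adjusted p = 0.0162). The part of these cell types in the results was not tested.

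A list of 7 genes on chromosome 11, Pctp among them, was picked because earlier results of these data showed knockout effects there, so those effects are no result. For the difference of responses 0 of them were called by limma. At an unadjusted p under 0.05, 1 was higher and 2 were lower, beside 3.95% and 11.2% of all genes. Dhx40, 3.21 megabases from Pctp, was at 8.48 to 8.72 FPKM in WT and 3.64 to 4.16 in Pctp-/- mice on chow, and at 9.50 to 9.80 and 5.34 to 5.61 on MCD. Its knockout difference was -0.98 on chow and -0.72 on MCD. Nr1d1 and Stat5a also lie on this chromosome, 8.79 and 10.9 megabases from Pctp, and the part of their position in their values was not tested.

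The count of called genes depended on single mice. It was 0 without Pctp-/- mouse 2 on MCD, where limma gave 1360 genes at an unadjusted p under 0.05, and 3 without WT mouse 2 on chow, WT mouse 2 on MCD or Pctp-/- mouse 3 on MCD. It was 4 without Pctp-/- mouse 3 on chow, 23 without WT mouse 1 on MCD and 27 without Pctp-/- mouse 1 on MCD. It reached 60 without WT mouse 1 on chow and 60 without WT mouse 3 on MCD.

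**Figure D5:**
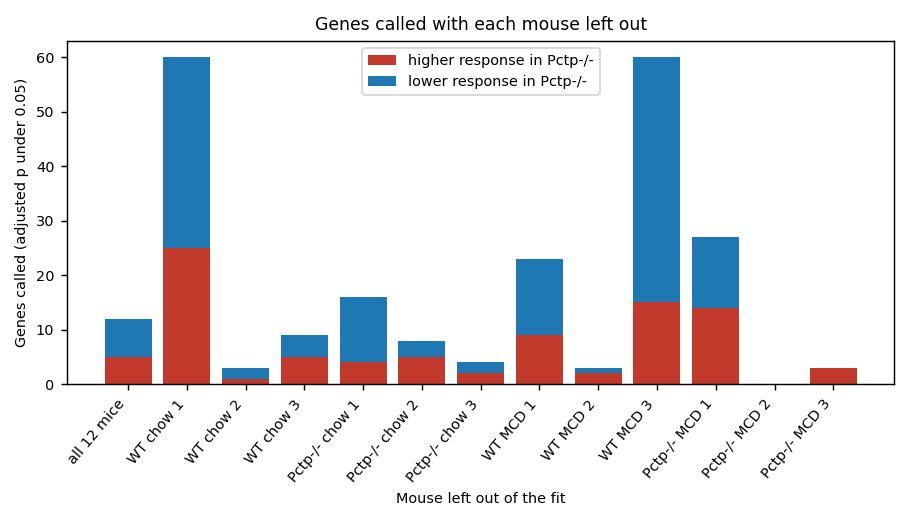
Bars give the number of genes called for the difference of responses (vertical axis) with all 12 mice and with each mouse left out in turn (horizontal axis), split by direction. The count runs from 0 without Pctp-/- mouse 2 on MCD to 60 without WT mouse 1 on chow or WT mouse 3 on MCD.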

How the data were processed

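Liver RNA of 12 mice was sequenced by Novogene. The authors deposited FPKM values per gene, on genome build mm10 per the labels, and a table of read totals and quality percentages. Aligner, counting tool and annotation were not given in the sources used here. FPKM is not a count, so no count test was run. log2(FPKM + 1) was fitted with limma 3.58.1 in R 4.3.3, with 1 mean for each of 4 groups and a mean-variance trend, on genes averaging 0.5 FPKM or more. Differences and SE are on this scale, which understates changes of low genes. The call threshold was an adjusted p under 0.05 (Benjamini-Hochberg). Named genes were all called genes, the 8 highest and 8 lowest uncalled differences (mean FPKM of at least 1, unadjusted p under 0.001), up to 4 genes per list by p, and Pctp, Acot13, Ppara, Ppard, Pparg, Fabp5 and Fgf21. A gene that this rule names is not reported here. The comparison and the 19 lists were chosen with earlier results of these data known. Symbols and positions came from GENCODE M21 (34490 of 35275 identifiers). The fit was tested on simulated data. Alternatives changed the pseudocount, filter, scaling, limma options, library weights, replicate block, minimum difference and the mice included. Tables and figures used Python 3.11.15, pandas 2.3.3 and matplotlib 3.10.9.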

Additional observations from a re-analysis of the deposited data

Results flagged for a closer look

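The 12 called genes are those for which the diet response differed between the genotypes by the test of the difference itself. The differences were 2.14 for Zbtb16, -2.08 for Csad, 2.51 for Cyp3a41a, -0.90 for Gm49342, 1.51 for Meg3, 1.43 for Rian, -2.16 for Bcl6, -0.96 for Htatip2, -1.75 for Fam25c, -1.37 for Ddc, 0.95 for Mug1 and -1.61 for Cyp2c55, each on log2(FPKM + 1). Over 12 fits without 1 mouse, the adjusted p ran from 0.00127 to 0.05001 for Zbtb16 and from 0.00399 to 0.0556 for Csad. No group held 4 mice, so single mice were not compared with the rest of their group.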

How the results depend on the processing

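With all mice and the settings as reported, 12 genes were called, 5 higher and 7 lower. The count was 3 (1 higher, 2 lower) at pseudocounts of 0.1 and 0.01, 6 (5 and 1) with median-of-ratios scaling, 7 (4 and 3) without the trend, 942 (196 and 746) with library weights and 1 (0 and 1) without both WT mice on MCD that had muscle transcripts, an alternative chosen after seeing the data. Quantile normalization gave 18 (13 and 5), and no filter 12 (7 and 5). With a replicate block it was 59 (29 and 30). Same-numbered mice were not paired in the reported fit, as the labels name no pairing. Of 18 correlations of their deviations, 8 exceeded 0.1 (range -0.097 to 0.225). Leaving out each mouse gave 0 to 60 genes, 0 to 25 higher and 0 to 45 lower. All 12 called genes kept their sign in every alternative that gave a value, with 117 of 285 values losing the call. Signs reversed for uncalled genes: Cdk1 was 0.042 with library weights, -0.28 to 0.22 with 1 mouse left out and 0.29 without both mice with muscle transcripts, where Acta1 was 0.034, Des 0.0098 and Cela1 -0.091, and Krt19 was -0.26 to 0.047 with 1 mouse left out. The causes were not tested. With 3 mice a group and FPKM values only, depth per gene is unknown, and low genes such as Meg3 and Rian rest on the pseudocount.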
